A study of Mus musculus with 9 samples.

Results

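The genes described here encode lysosomal enzymes and membrane proteins and the vacuolar ATPase, 41 genes chosen by name from the 55401 genes of a count table of mouse extra-embryonic endoderm (XEN) cells. They fall into 23 hydrolases, 4 other proteins of the lysosome lumen, 7 membrane proteins, 6 genes of the proton pump and 1 regulator, Tfeb. The rule names the genes and uses no measured value. RNA-seq compared cells with deletions upstream of Xist with wild-type cells, in XEN lines of M. m. molossinus and M. musculus parentage, labelled female except for WT_clone, whose labels give no sex. DeltXp_DeltXm cells (2 libraries, D3 in the titles) are labelled as homozygous for the deletion, and DeltXp cells (2 libraries, D1 in the titles) as carrying it on the paternal X. WT_EV (3 libraries) is the wild-type group of the same table, and WT_clone (2 libraries) is a second wild-type group in a separate table. The meaning of D1, D3 and EV is not given in the labels, and an effect of the line cannot be told apart from one of the genotype if each is a single line.

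Lysosomes are acidic organelles in which hydrolases break down proteins, sugars, lipids and sulfated molecules taken up by endocytosis or delivered by autophagy. The vacuolar ATPase, whose membrane sector V0 carries the protons and whose cytosolic sector V1 hydrolyses ATP, sets the acid pH that these enzymes need. Many lysosomal genes carry an E-box-containing motif, the CLEAR element, that the transcription factor TFEB and its relatives bind. XEN cells derive from the primitive endoderm, the lineage of the yolk sac endoderm, an epithelium known for uptake and lysosomal digestion of maternal material.

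The E-box core of the CLEAR element was searched in RefSeq promoters (GRCm38, from 250 bases before to 50 bases after each start) on both strands. An entry was found for 35 of the 41 genes. The core with its 5′ T, TCACGTG, lay in 11 of 35 promoters (31.4%), against 1160 of 27025 genes with a promoter entry (4.29%). The shorter CACGTG, which every TCACGTG contains, lay in 12 of 35 (34.3%), against 8.09% of all genes. The palindromic form of the element, the core with GT before and AC after it, lay in 1 of 35, Cln3, against 0.37% of all genes. A match describes the letters of the window and is not a measured binding site. The 6 stretches below are upstream of the start and are shown because they belong to genes that the results turn on and hold 1 to 4 cores. Capitals mark the core with its flanking T or A.
Cln3, chr7:126583326-126583410, minus strand: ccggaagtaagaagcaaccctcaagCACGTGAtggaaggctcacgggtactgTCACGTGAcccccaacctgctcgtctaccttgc
Ctsd, chr7:142387894-142388077, minus strand: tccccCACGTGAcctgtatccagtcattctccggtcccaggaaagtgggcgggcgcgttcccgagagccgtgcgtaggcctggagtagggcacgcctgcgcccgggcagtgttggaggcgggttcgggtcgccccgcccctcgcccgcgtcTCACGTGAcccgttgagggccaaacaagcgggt
Mcoln1, chr8:3500422-3500505, plus strand: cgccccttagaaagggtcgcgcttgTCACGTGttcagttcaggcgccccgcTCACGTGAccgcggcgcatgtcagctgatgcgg
Lamp1, chr8:13159074-13159160, plus strand: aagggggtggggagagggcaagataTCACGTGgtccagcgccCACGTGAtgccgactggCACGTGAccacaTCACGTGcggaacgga
Gla, chrX:134601168-134601255, minus strand: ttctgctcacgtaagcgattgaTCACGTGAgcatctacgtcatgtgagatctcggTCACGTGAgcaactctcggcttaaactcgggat
Atp6v1a, chr16:44139359-44139416, minus strand: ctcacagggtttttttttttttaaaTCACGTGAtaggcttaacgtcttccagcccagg

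Lamp1 held 4 cores within 61 bases of its start, the most of any of these genes, and Ctsa, Gaa, Glb1, Sgsh and Atp6v0d1 completed the 11 with TCACGTG. The promoters with the motif belonged to genes that rose and to genes that fell. Of the 11 genes, 2 rose (Gla, Atp6v1a), 8 fell and 1 (Lamp1) passed no threshold in each deletion against WT_EV on the counts as deposited (edgeR quasi-likelihood test), where 36% of all genes fell in DeltXp_DeltXm and 40.1% in DeltXp. Of the 24 matched genes without TCACGTG, 9 rose, 7 fell, 6 passed no threshold and 2 could not be tested in each deletion. In a second fit, with offsets for the GC content and length of each gene, 1 of the 11 rose, 4 fell and 6 passed no threshold in DeltXp_DeltXm, and 1 rose, 2 fell and 8 passed no threshold in DeltXp, where 19.3% and 23.7% of all genes fell. Gla and Atp6v1a passed no threshold in that fit, and Mcoln1, among the 8 that fell, rose in DeltXp_DeltXm.

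Library totals were 25589912 and 27334893 counts in DeltXp_DeltXm, 24586135 and 29335803 in DeltXp, and 14352719 to 19833044 in WT_EV. The genes described here took 0.61% and 0.755% of the counts in DeltXp_DeltXm, 0.812% and 0.687% in DeltXp, and 0.658% to 0.688% in WT_EV. Xist had 5460 and 8951 CPM (counts scaled to a common library total) in DeltXp_DeltXm and 17310 and 15450 CPM in DeltXp, against 689, 953 and 1562 CPM in WT_EV, and these exon counts do not check a deletion that lies upstream of the gene. The 10 endoderm markers summed to 14150 and 11220 CPM in DeltXp_DeltXm, 7425 and 17110 CPM in DeltXp, and 21320 to 28880 CPM in WT_EV. Col4a1 and Lama1 took the largest parts of the WT_EV sums, and Col4a1 was at 0 in DeltXp replicate 1. Gata4, Foxa2, Col4a1 and Lama1 lay below WT_EV in every deletion library, and Dab2 and Sox7 lay above it. Gata6, Sox17, Pdgfra and Sparc overlapped with WT_EV. Markers of fibroblasts, macrophages, pluripotent cells and trophoblast summed to under 2 CPM per list in every library. In the macrophage list the highest value was that of Spi1, 0.802 CPM in WT_EV replicate 2, and Ptprc and Adgre1 had at most 0.0511 CPM. The libraries differed in base composition: the median GC content of reads in coding genes was 44.7% and 44.5% in DeltXp_DeltXm, 43.6% and 44.3% in DeltXp, and 50.1% to 50.9% in WT_EV. The small nuclear RNA Rn7sk had 2 and 7 counts in DeltXp_DeltXm and 3 and 4 in DeltXp, against 157188 to 255029 in WT_EV. The labels name 2 kits without saying which was used for which library, so library preparation and genotype cannot be told apart here. Each comparison was therefore fitted on the counts as deposited and again with offsets for the GC content and length of each gene.

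Against WT_EV, most of the lysosome genes passed the test, in both directions. In bulk libraries such as these, fewer cells of a type and less RNA per cell cannot be told apart. Of the 41, 39 had enough counts to be tested (edgeR quasi-likelihood test, Benjamini-Hochberg adjusted p under 0.05 over 15331 genes). In DeltXp_DeltXm, 13 rose, 16 fell and 10 passed no threshold, so that 74.4% were called, where 66.8% of all genes were (30.9% higher, 36% lower). In DeltXp, 14 rose, 17 fell and 8 passed no threshold, so that 79.5% were called, against 72.3% of all genes (32.2% higher, 40.1% lower). The median log2 change was -0.39 in DeltXp_DeltXm and -0.53 in DeltXp, where the median of all genes tested was -0.15 and -0.35. With the offsets, 10 rose and 9 fell in DeltXp_DeltXm (48.7%, all genes 40%) and 12 rose and 7 fell in DeltXp (48.7%, all genes 48.7%). The shares called lie near those of all genes in both fits, and the counts by role below are to be read beside those shares. The libraries of a deletion and of WT_EV overlapped in 6 of the 39 genes in DeltXp_DeltXm and 4 in DeltXp. For all genes such overlap was not counted. The 2 comparisons share the WT_EV libraries, so their values are set side by side and not counted as separate support.

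**Figure D1:**
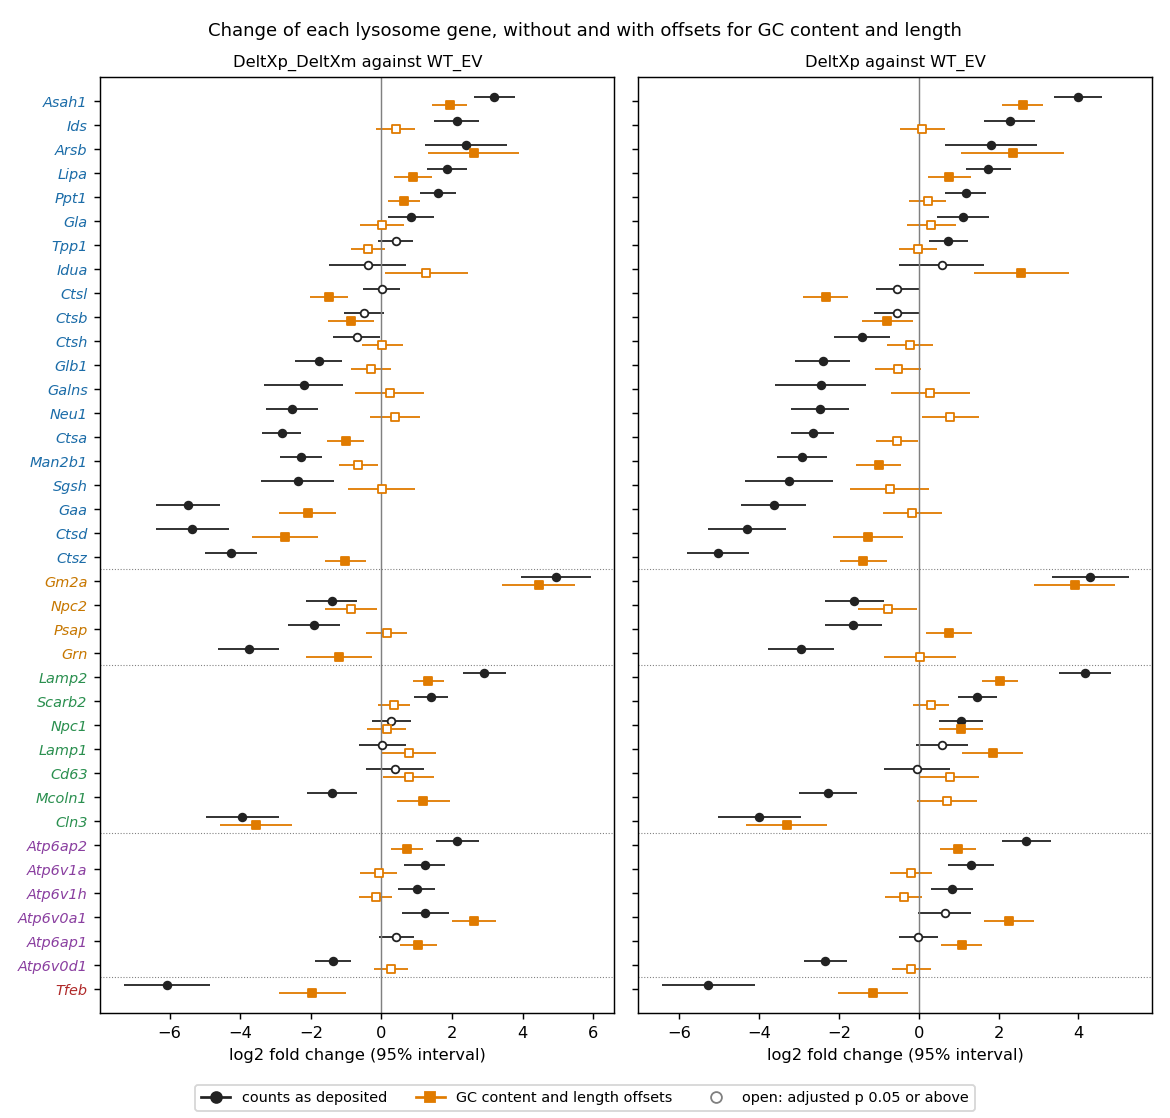
Log2 fold change (x axis, line: 95% interval) of 38 lysosome genes (rows, name colour by role as in the heat map) in DeltXp_DeltXm (left) and DeltXp (right) against WT_EV. Black circles are the counts as deposited, orange squares the fit with GC content and length offsets, and open symbols have an adjusted p of 0.05 or above. Gm2a, Asah1 and Lamp2 lie to the right of 0 and Cln3, Ctsd and Tfeb to the left in both fits, while genes such as Galns and Atp6v0d1 move to near 0 with the offsets. Ctsc is left out because DeltXp has 0 and 1 counts.

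The change of a gene went with the GC content of its transcript. Over the 39 genes tested, Spearman's rho between GC content and log2 change was -0.81 in DeltXp_DeltXm and -0.73 in DeltXp. Over all genes tested it was -0.65 and -0.66. These are correlations across genes that share the same 7 libraries, and they are given as a description. Of the 13 lysosome genes with a GC content of 54% or more, such as Tfeb (63.2%), Gaa (59.5%) and Ctsz (57.3%), 13 had a negative change in DeltXp_DeltXm and 12 in DeltXp. Of the 13 below 48%, such as Lamp2 (38.7%), Atp6ap2 (40.5%) and Asah1 (43.5%), 12 had a positive change in DeltXp_DeltXm and 11 in DeltXp. With the offsets rho over the 39 genes was -0.27 in DeltXp_DeltXm and -0.18 in DeltXp. GC content and length together accounted for 45.6% of the variance of the log2 change over all genes in DeltXp_DeltXm and 47.3% in DeltXp.

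**Figure D2:**
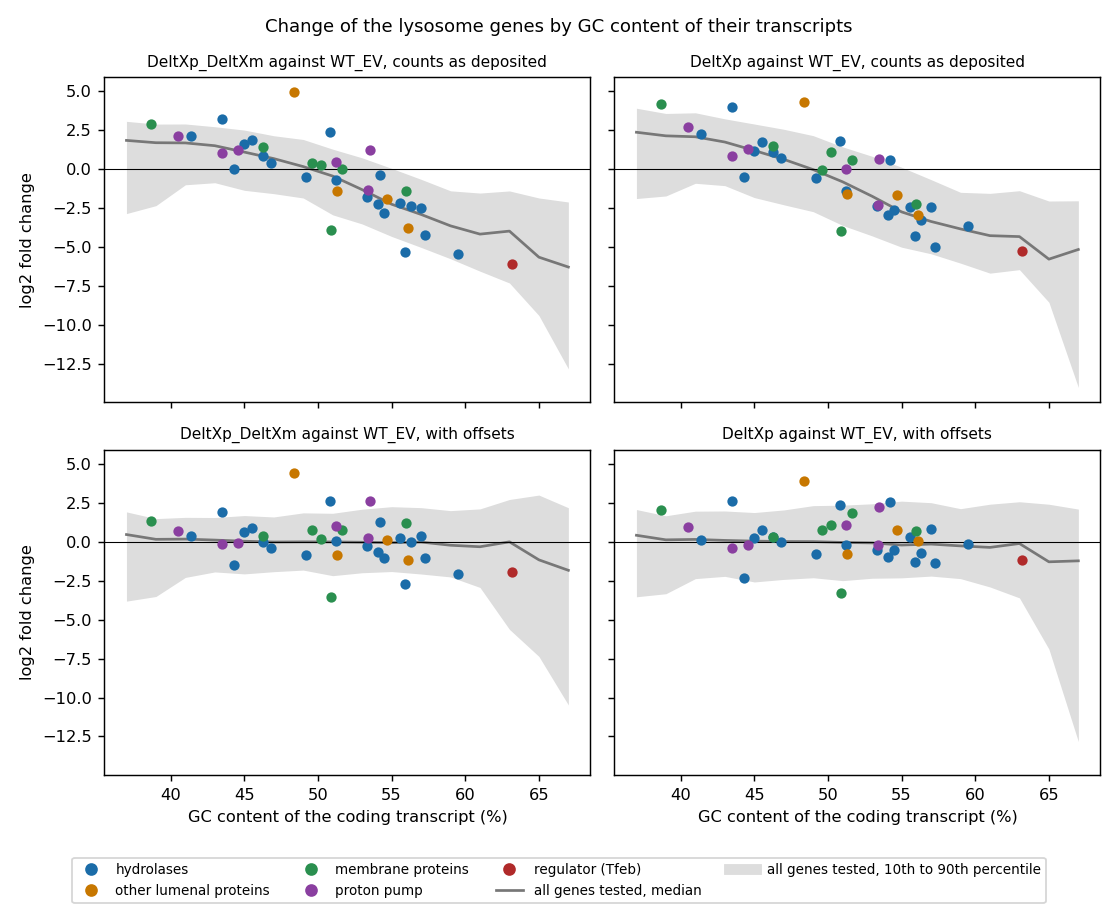
Log2 fold change (y axis) against the GC content of the coding transcript (x axis, %) for 38 lysosome genes (points, coloured by role; Ctsc left out), in DeltXp_DeltXm (left) and DeltXp (right) against WT_EV, with counts as deposited (top) and with offsets (bottom). The grey line and band are the median and the 10th to 90th percentile of all genes tested in bins of GC content. In the top panels most lysosome genes lie within the falling band, with Gm2a, Asah1, Lamp2 and Arsb above it and Cln3 below it in both columns.

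The 8 peptidases are the cathepsins and Tpp1, tripeptidyl peptidase 1. In DeltXp_DeltXm 3 fell (Ctsa, Ctsd, Ctsz) and none rose, and in DeltXp Ctsh fell as well and Tpp1 rose. Among all genes 30.9% rose and 36% fell in DeltXp_DeltXm, and 32.2% rose and 40.1% fell in DeltXp. Ctsd (chr7:142375911-142388038, minus strand) encodes cathepsin D, the main aspartic protease of the lysosome. It had 1.45 and 3.93 CPM in DeltXp_DeltXm and 6.29 and 4.90 CPM in DeltXp, against 119.5, 117 and 95.2 CPM in WT_EV. All deletion libraries lay far below every WT_EV library, with a change of log2 -5.35 (SE 0.462, adjusted p = 1.25e-05) in DeltXp_DeltXm and log2 -4.30 (SE 0.435, adjusted p = 1.62e-05) in DeltXp. Ctsz (chr2:174427493-174439039, minus strand), which encodes cathepsin Z, a carboxypeptidase, had 11.4 and 15.7 CPM in DeltXp_DeltXm and 9.20 and 6.60 CPM in DeltXp, against 314, 251 and 210.4 CPM in WT_EV. Again the groups did not overlap with WT_EV, and the change was log2 -4.25 (SE 0.329, adjusted p = 8.88e-06) in DeltXp_DeltXm and log2 -5.03 (SE 0.345, adjusted p = 4.46e-06) in DeltXp. With the offsets both still fell, Ctsd at -2.73 (adjusted p = 0.00137) and -1.28 (adjusted p = 0.0227) and Ctsz at -1.02 (adjusted p = 0.0127) and -1.39 (adjusted p = 0.00269) in DeltXp_DeltXm and DeltXp. Of the exon bases of Ctsd, 34.4% are shared on the same strand with Gm49369, which had 0 counts.

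Ctsa encodes cathepsin A, the carboxypeptidase that also protects beta-galactosidase and neuraminidase 1. It had 34.1 and 37.04 CPM in DeltXp_DeltXm and 43.9 and 35.98 CPM in DeltXp, against 274, 249 and 236 CPM in WT_EV, a log2 change of -2.83 (adjusted p = 1.27e-05) in DeltXp_DeltXm and -2.66 (adjusted p = 9.36e-06) in DeltXp. With the offsets it fell in DeltXp_DeltXm, at -1.02 (adjusted p = 0.00833), and was not called in DeltXp, at -0.55 (adjusted p = 0.0742). Of the 2 fits, the cysteine cathepsins Ctsb and Ctsl, abundant endopeptidases, were called only in the one with the offsets. Ctsl had 865 and 1054 CPM in DeltXp_DeltXm and 778 and 543 CPM in DeltXp, against 966, 995 and 908 CPM in WT_EV, and on the counts as deposited it was not called, at 0.005 (adjusted p = 0.989) and -0.53 (adjusted p = 0.0696). With the offsets it fell in both deletions, at -1.50 (adjusted p = 0.00162) in DeltXp_DeltXm and -2.33 (adjusted p = 0.000193) in DeltXp. Ctsb was likewise not called at first and fell with the offsets, at -0.86 (adjusted p = 0.0392) and -0.79 (adjusted p = 0.0446). Without WT_EV replicate 3, edgeR on the counts as deposited also called Ctsb lower in DeltXp, at -0.67 (adjusted p = 0.0452). A replicate block with crossed DeltXp numbers, chosen after seeing the data, called Ctsb lower in both deletions and Ctsl lower in DeltXp. With the offsets none of the 8 peptidases rose, 5 fell in DeltXp_DeltXm (all genes 19.3% lower) and 4 fell in DeltXp (all genes 23.7% lower).

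Ctsc, cathepsin C or dipeptidyl peptidase 1, was present in some libraries and nearly absent in others of the same group. It had 33.4 and 0.393 CPM in DeltXp_DeltXm and 0 and 0.0386 CPM in DeltXp, against 47.8, 54.6 and 0.300 CPM in WT_EV. The DeltXp libraries held 0 and 1 counts, and WT_EV replicate 3 and DeltXp_DeltXm replicate 2 were as near to 0 as their group mates were not. In the main edgeR fit it was not called in either comparison, at adjusted p = 0.697 in DeltXp_DeltXm and 0.0694 in DeltXp. Several alternative fits called it lower in DeltXp, among them DESeq2 (adjusted p = 0.000153) and edgeR on the 2 groups alone (adjusted p = 0.0238). A fitted fold change is not given because it rests on 0 and 1 counts.

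Of the 8 glycosidases, 6 could be tested. Gaa, Glb1, Neu1 and Man2b1 fell in both deletions, Gla rose in both, and Idua was not called. For all genes the share that fell was 36% in DeltXp_DeltXm and 40.1% in DeltXp, and 30.9% and 32.2% rose. Hexa had 0 counts in all 7 libraries, and Gusb had 1 count in WT_EV replicate 1 and 0 elsewhere. Whether reads of these genes were lost at counting was not tested. Gaa (chr11:119267887-119285454, plus strand), acid alpha-glucosidase, the enzyme that degrades glycogen in the lysosome, had 1.87 and 4.32 CPM in DeltXp_DeltXm and 11.3 and 10.9 CPM in DeltXp, against 147, 126 and 140.5 CPM in WT_EV. The change was log2 -5.47 (SE 0.409, adjusted p = 8.34e-06) in DeltXp_DeltXm and log2 -3.63 (SE 0.367, adjusted p = 1.64e-05) in DeltXp, with no overlap between any of the 3 groups. With the offsets Gaa fell in DeltXp_DeltXm, at -2.09 (adjusted p = 0.00227), and was not called in DeltXp, at -0.16 (adjusted p = 0.702). The changes of Glb1 (beta-galactosidase), Neu1 (neuraminidase 1) and Man2b1 (lysosomal alpha-mannosidase) lay between -2.52 and -1.77 in DeltXp_DeltXm and between -2.93 and -2.41 in DeltXp. With the offsets, of these 3 only Man2b1 in DeltXp stayed past the threshold, at -1.005 (adjusted p = 0.0102). Gla, alpha-galactosidase A, had 35.6 and 40.2 CPM in DeltXp_DeltXm and 52.7 and 38.5 CPM in DeltXp, against 15.9, 20.4 and 27.4 CPM in WT_EV and rose, at log2 0.84 (adjusted p = 0.0279) in DeltXp_DeltXm and 1.10 (adjusted p = 0.00655) in DeltXp. With the offsets its change was 0.01 and 0.31, neither called. In DeltXp_DeltXm the first call of Gla also fails without replicate 2 of that group and without WT_EV replicate 1 or 2, with adjusted p between 0.0851 and 0.11.

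The 3 lipid hydrolases rose in both deletions. Asah1 (chr8:41340197-41374773, minus strand), acid ceramidase, which splits ceramide into sphingosine and fatty acid, had 1089 and 1724 CPM in DeltXp_DeltXm and 2621 and 2239 CPM in DeltXp, against 143, 142 and 174 CPM in WT_EV. Every deletion library lay above every WT_EV library, and the change was log2 3.20 (SE 0.265, adjusted p = 1.06e-05) in DeltXp_DeltXm and log2 3.99 (SE 0.273, adjusted p = 4.46e-06) in DeltXp. With the offsets the log2 changes of Asah1 were 1.93 (adjusted p = 0.000473) in DeltXp_DeltXm and 2.60 (adjusted p = 9.3e-05) in DeltXp. Lipa, lysosomal acid lipase, which hydrolyses cholesteryl esters and triglycerides, had 229 and 219 CPM in DeltXp_DeltXm and 253 and 158 CPM in DeltXp, against 55.5, 71.1 and 58.2 CPM in WT_EV. It rose, at log2 1.86 (adjusted p = 0.000142) in DeltXp_DeltXm and 1.74 (adjusted p = 0.000163) in DeltXp, and with the offsets at 0.90 (adjusted p = 0.0163) and 0.77 (adjusted p = 0.0255). Ppt1, palmitoyl-protein thioesterase 1, had 108 and 98.6 CPM in DeltXp_DeltXm and 84.7 and 68.4 CPM in DeltXp, against 32.7, 30.5 and 38.5 CPM in WT_EV, with changes of 1.61 (adjusted p = 0.000192) and 1.18 (adjusted p = 0.0011). With the offsets Ppt1 rose in DeltXp_DeltXm, at 0.63 (adjusted p = 0.034), and was not called in DeltXp, at 0.23 (adjusted p = 0.382). In DeltXp_DeltXm all 3 thus rose in both fits, where 30.9% and 20.8% of all genes rose.

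**Figure D3:**
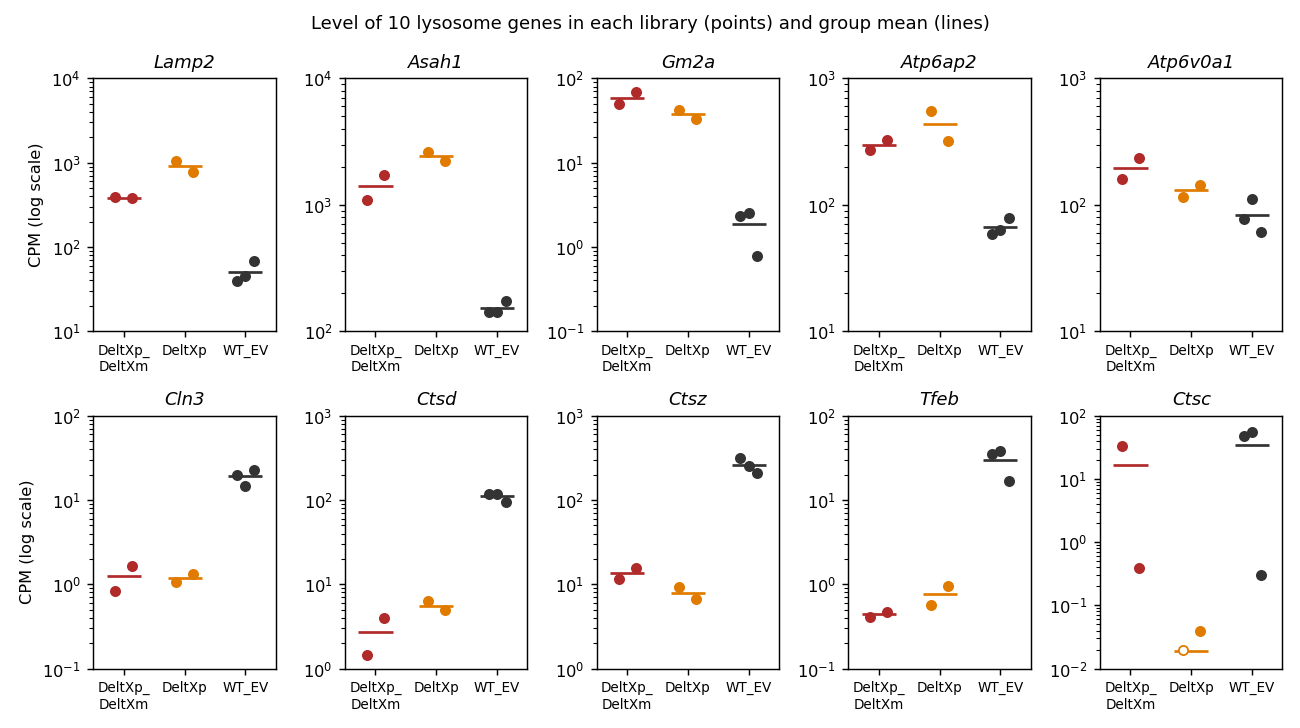
CPM (y axis, log scale) of 10 lysosome genes in each library (points) of DeltXp_DeltXm, DeltXp and WT_EV, with group means (lines). An open point at 0.02 stands for 0 counts. In the top row the deletion libraries lie above WT_EV, in the bottom row Cln3, Ctsd, Ctsz and Tfeb lie below it, and Ctsc is split within WT_EV and within DeltXp_DeltXm.

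The 4 sulfatases, which remove sulfate groups from glycosaminoglycans, were divided. Arsb (arylsulfatase B) and Ids (iduronate 2-sulfatase) rose in both deletions, and Sgsh (sulfamidase) and Galns (N-acetylgalactosamine-6-sulfatase) fell in both. The shares of all genes that rose were 30.9% in DeltXp_DeltXm and 32.2% in DeltXp, and 36% and 40.1% fell. Arsb had 10.3 and 12.9 CPM in DeltXp_DeltXm and 12.2 and 3.24 CPM in DeltXp, against 2.65, 1.86 and 2.10 CPM in WT_EV. Its change was 2.40 (adjusted p = 0.00245) in DeltXp_DeltXm and 1.81 (adjusted p = 0.01) in DeltXp on the counts as deposited, and 2.61 (adjusted p = 0.00679) and 2.35 (adjusted p = 0.00853) with the offsets. Without DeltXp replicate 1 the rise in DeltXp, then from 1 library of 3.24 CPM, was not called (log2 0.68, adjusted p = 0.242). Ids, on the X chromosome, had 54.6 and 43.3 CPM in DeltXp_DeltXm and 64.5 and 44.1 CPM in DeltXp, against 9.46, 10.5 and 13.6 CPM in WT_EV and rose, at log2 2.13 (adjusted p = 0.000129) and 2.28 (adjusted p = 6.17e-05). With the offsets Ids, Sgsh and Galns were not called, and their changes lay between 0.01 and 0.41 in DeltXp_DeltXm and between -0.73 and 0.29 in DeltXp.

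Of the 4 lumenal proteins without hydrolase activity of their own, Gm2a rose in both deletions on the counts as deposited. Npc2 and Grn fell in both, and the direction of Psap turned with the offsets. Beside these 4 genes, 30.9% of all genes rose and 36% fell in DeltXp_DeltXm, and 32.2% and 40.1% in DeltXp, on the deposited counts. Gm2a (chr11:55098115-55113029, plus strand), the GM2 activator, which lifts ganglioside from the membrane for its breakdown, showed the largest rise of the 39 genes tested. It had 49.4 and 68.1 CPM in DeltXp_DeltXm and 42.1 and 32.7 CPM in DeltXp, against 2.31, 2.53 and 0.780 CPM in WT_EV. The change was log2 4.95 (SE 0.444, adjusted p = 1.43e-05) in DeltXp_DeltXm and log2 4.30 (SE 0.435, adjusted p = 1.64e-05) in DeltXp, and with the offsets 4.45 (adjusted p = 0.000288) and 3.91 (adjusted p = 0.000261). Npc2, which carries cholesterol out of the lumen to Npc1, had 34.00 and 70.6 CPM in DeltXp_DeltXm and 40.6 and 50.1 CPM in DeltXp, against 138, 155 and 123 CPM in WT_EV and fell, at log2 -1.41 (adjusted p = 0.00347) and -1.61 (adjusted p = 0.00141). The offsets ended both calls of Npc2, at -0.87 (adjusted p = 0.0606) and -0.78 (adjusted p = 0.0742). Grn, progranulin, had 5.02 and 5.93 CPM in DeltXp_DeltXm and 12.4 and 6.91 CPM in DeltXp, against 58.4, 67.3 and 97.6 CPM in WT_EV and fell, at log2 -3.76 (adjusted p = 2.94e-05) and -2.95 (adjusted p = 6.25e-05). With the offsets Grn stayed lower in DeltXp_DeltXm alone, at -1.19 (adjusted p = 0.0463), and was at 0.03 (adjusted p = 0.958) in DeltXp. Psap, prosaposin, the precursor of the saposins that activate sphingolipid hydrolases, fell, at log2 -1.91 (adjusted p = 0.000581) and -1.64 (adjusted p = 0.00114) on the counts as deposited. With the offsets it turned to 0.14 (adjusted p = 0.686) in DeltXp_DeltXm and to a rise of 0.77 (adjusted p = 0.0331) in DeltXp, so that no direction is given for Psap.

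Among the 7 membrane proteins, Lamp2 and Scarb2 rose and Cln3 fell in both deletions on the counts as deposited, Npc1 rose in DeltXp, and the direction of Mcoln1 turned with the offsets. Lamp2 (chrX:38401357-38456454, minus strand), a heavily glycosylated protein of the lysosomal membrane needed for fusion with autophagosomes and for chaperone-mediated autophagy, had 386 and 379 CPM in DeltXp_DeltXm and 1037 and 777 CPM in DeltXp, against 39.4, 45.01 and 67.7 CPM in WT_EV. The 3 groups did not overlap, and the change was log2 2.92 (SE 0.278, adjusted p = 1.91e-05) in DeltXp_DeltXm and log2 4.16 (SE 0.289, adjusted p = 4.46e-06) in DeltXp. With the offsets the log2 changes of Lamp2 were 1.33 (adjusted p = 0.00123) in DeltXp_DeltXm and 2.04 (adjusted p = 0.000148) in DeltXp. Its relative Lamp1 had 887 and 1264 CPM in DeltXp_DeltXm and 2076 and 1107 CPM in DeltXp, against 1077, 963 and 1144 CPM in WT_EV. Those ranges overlapped, and Lamp1 was not called, at 0.02 (adjusted p = 0.96) and 0.58 (adjusted p = 0.0994). With the offsets Lamp1 rose in DeltXp, at 1.85 (adjusted p = 0.0022), and was at 0.79 (adjusted p = 0.09) in DeltXp_DeltXm. The tetraspanin Cd63 was called in neither fit. Beside these 7 genes, 30.9% of all genes rose and 36% fell in DeltXp_DeltXm, and 32.2% and 40.1% in DeltXp, on the deposited counts.

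Cln3 (chr7:126571207-126585817, minus strand), the membrane protein whose loss causes juvenile Batten disease in humans and whose promoter holds the palindromic form, had 0.829 and 1.65 CPM in DeltXp_DeltXm and 1.07 and 1.31 CPM in DeltXp, against 20.03, 14.8 and 22.7 CPM in WT_EV. The change was log2 -3.94 (SE 0.462, adjusted p = 5.69e-05) in DeltXp_DeltXm and log2 -3.995 (SE 0.465, adjusted p = 3.67e-05) in DeltXp, and the offsets moved it to -3.55 (adjusted p = 0.000653) and -3.31 (adjusted p = 0.000544). Cln3 has a GC content of 50.9%, near the middle of the range. Mcoln1, the cation channel TRPML1 that releases lysosomal calcium, had 15.7 and 21.9 CPM in DeltXp_DeltXm and 9.15 and 11.4 CPM in DeltXp, against 44.2, 40.8 and 64.4 CPM in WT_EV and fell, at log2 -1.40 (adjusted p = 0.00291) and -2.27 (adjusted p = 0.000154). With the offsets its sign turned, to a rise of 1.19 (adjusted p = 0.0197) in DeltXp_DeltXm and to 0.71 (adjusted p = 0.106) in DeltXp. Scarb2, LIMP-2, an integral protein of the lysosomal membrane, had 253 and 327 CPM in DeltXp_DeltXm and 276 and 328 CPM in DeltXp, against 106, 118 and 104 CPM in WT_EV and rose, at log2 1.40 (adjusted p = 0.000335) and 1.46 (adjusted p = 0.000199). The offsets ended both calls of Scarb2, at 0.36 and 0.31. Npc1, the cholesterol transporter, had 66.9 and 98.3 CPM in DeltXp_DeltXm and 128 and 157 CPM in DeltXp, against 60.05, 68.7 and 75.5 CPM in WT_EV. It rose in DeltXp, at log2 1.06 (adjusted p = 0.0032) and with the offsets at 1.06 (adjusted p = 0.00633), and was not called in DeltXp_DeltXm, at 0.28 (adjusted p = 0.344).

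Of the 6 proton pump genes, 4 rose in DeltXp_DeltXm and 3 in DeltXp, and Atp6v0d1 fell in both. Over all genes, 30.9% and 32.2% rose and 36% and 40.1% fell in the same comparisons. Atp6ap2 (chrX:12587801-12617049, plus strand), the (pro)renin receptor, an accessory subunit of the pump, had 270.4 and 324 CPM in DeltXp_DeltXm and 552 and 318 CPM in DeltXp, against 59.1, 63.6 and 78.7 CPM in WT_EV. All 4 deletion libraries lay above WT_EV, and the change was log2 2.15 (SE 0.275, adjusted p = 9.57e-05) in DeltXp_DeltXm and log2 2.69 (SE 0.278, adjusted p = 1.8e-05) in DeltXp. With the offsets the log2 changes of Atp6ap2 were 0.71 (adjusted p = 0.0203) in DeltXp_DeltXm and 0.97 (adjusted p = 0.00388) in DeltXp. Atp6v0a1, the a1 subunit of the V0 sector, had 159 and 234 CPM in DeltXp_DeltXm and 116 and 144 CPM in DeltXp, against 77.7, 111 and 60.5 CPM in WT_EV. It rose in DeltXp_DeltXm, at log2 1.24 (adjusted p = 0.00413) and was at 0.64 (adjusted p = 0.0735) in DeltXp, and with the offsets it rose in both, at 2.61 (adjusted p = 0.000329) and 2.26 (adjusted p = 0.000334). The V1 genes Atp6v1a, the catalytic A subunit, and Atp6v1h, the regulatory H subunit, rose, at log2 1.23 (adjusted p = 0.00204) and 0.998 (adjusted p = 0.00421) in DeltXp_DeltXm. In DeltXp they rose, at log2 1.30 (adjusted p = 0.00123) and 0.84 (adjusted p = 0.00971). The offsets brought both near 0, to -0.08 and -0.16 in DeltXp_DeltXm and -0.20 and -0.38 in DeltXp, none called. Atp6v0d1, the d1 subunit, which links the V0 ring to the stalk of V1, had 35.7 and 33.4 CPM in DeltXp_DeltXm and 16.5 and 18.8 CPM in DeltXp, against 84.5, 90.5 and 93.3 CPM in WT_EV. It fell, at log2 -1.37 (adjusted p = 0.000548) and -2.34 (adjusted p = 1.98e-05), and with the offsets was at 0.27 and -0.19, not called. Atp6ap1, the other accessory subunit, was not called on the counts as deposited and rose with the offsets at 1.05 (adjusted p = 0.00665) and 1.08 (adjusted p = 0.00443). On the counts as deposited the 6 genes summed to 1422 and 1760 CPM in DeltXp_DeltXm and 1909 and 1307 CPM in DeltXp. WT_EV had 711, 785 and 803 CPM. Atp6v1a and Atp6ap2 had the highest means in the deletions. These were 649 and 297 CPM in DeltXp_DeltXm and 682 and 435 CPM in DeltXp, against 277 and 67.1 CPM in WT_EV. No sum was made with the offsets. Of the other 14 pump genes tested, 1 rose in each comparison, while 5 fell in DeltXp_DeltXm and 6 in DeltXp.

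Tfeb (chr17:47737030-47792419, plus strand), the transcription factor that binds the CLEAR element, had 0.415 and 0.471 CPM in DeltXp_DeltXm and 0.562 and 0.965 CPM in DeltXp, against 35.4, 38.2 and 16.9 CPM in WT_EV. The groups did not overlap, and the change was log2 -6.07 (SE 0.552, adjusted p = 1.52e-05) in DeltXp_DeltXm and log2 -5.28 (SE 0.523, adjusted p = 1.47e-05) in DeltXp. With the offsets the log2 changes of Tfeb were -1.96 (adjusted p = 0.00615) in DeltXp_DeltXm and -1.14 (adjusted p = 0.0367) in DeltXp. Both remained past the threshold. Tfeb has the highest GC content of the genes described here. Its relative Tfe3 had 19.1 and 19.6 CPM in DeltXp_DeltXm and 10.9 and 13.1 CPM in DeltXp, against 100, 84.9 and 91.2 CPM in WT_EV and fell, at log2 -2.94 (adjusted p = 8.39e-06) in DeltXp, where the offsets gave 0.14 (adjusted p = 0.611). Rragd, a Rag GTPase through which nutrient signals reach TFEB at the lysosome, had 29.4 and 42.5 CPM in DeltXp_DeltXm and 23.3 and 23.2 CPM in DeltXp, against 0.338, 0.717 and 0.120 CPM in WT_EV. It rose, at log2 6.43 (adjusted p = 9.48e-06) in DeltXp_DeltXm and 5.80 (adjusted p = 7.8e-06) in DeltXp, and with the offsets at 5.40 (adjusted p = 0.000203) and 4.67 (adjusted p = 0.000183). The Ragulator subunit Lamtor1, which anchors the Rag GTPases, fell, at log2 -3.82 (adjusted p = 1.03e-05) and -4.55 (adjusted p = 4.55e-06), and with the offsets at -0.75 (adjusted p = 0.0507), not called, and -1.03 (adjusted p = 0.0136). Fnip1, the partner of folliculin that acts on the same GTPases, rose, at log2 2.91 (adjusted p = 0.00038) and 3.62 (adjusted p = 8.66e-05), and with the offsets at 1.06 and 1.08, both called.

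**Figure D4:**
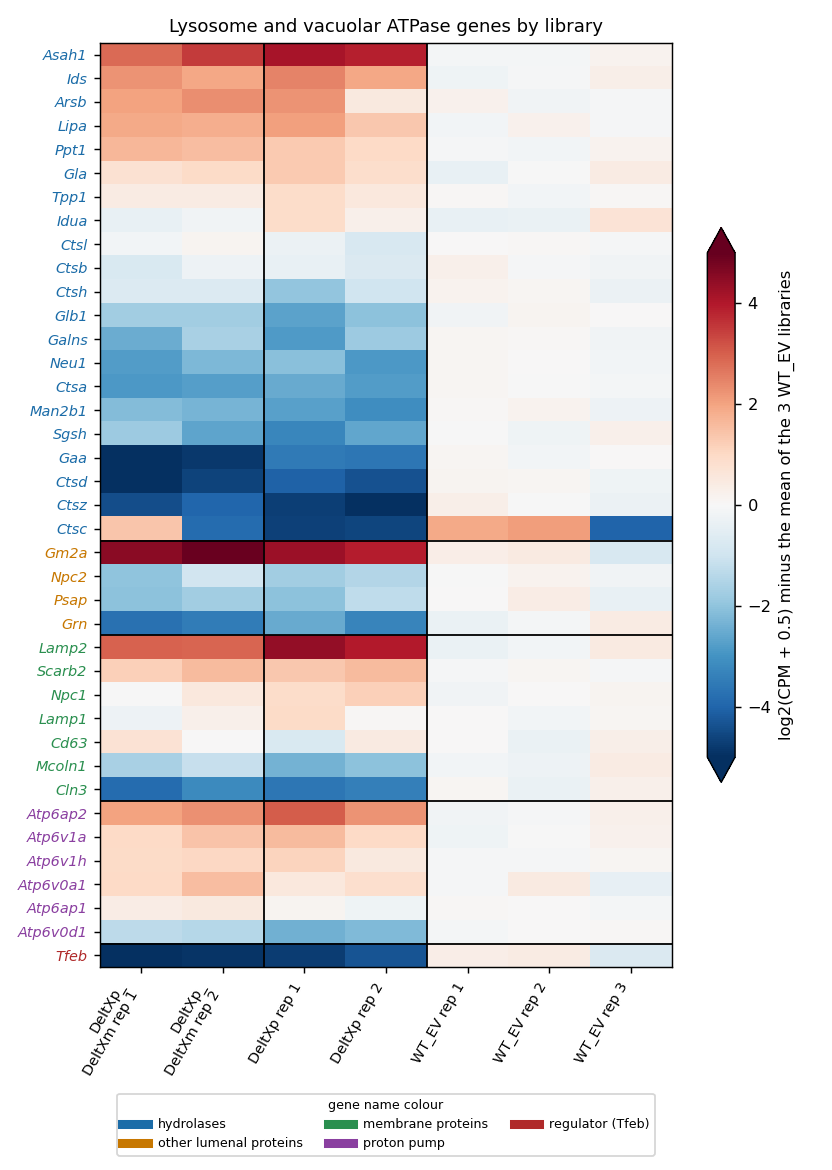
Level of 39 lysosome genes (rows, grouped by role and coloured by it) in 7 libraries (columns: DeltXp_DeltXm, DeltXp, WT_EV), as log2(CPM + 0.5) minus the mean of the 3 WT_EV libraries. Colours are limited to 5 in either direction. Tfeb, Ctsd, Gaa and Ctsz are low and Gm2a, Asah1 and Lamp2 high in all 4 deletion columns, and Ctsc shows the split within groups.

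Between the deletions no lysosome gene passed the test. Of 39 tested, 0 were called in DeltXp_DeltXm against DeltXp (edgeR quasi-likelihood test), where 0.444% of all genes were, 68 in number. With the offsets 0 of 39 were called as well, where 0.242% of all genes were. DESeq2 called 3 of the 39, Ctsc higher and Lamp2 and Gaa lower, where it called 7.47% of all genes. At an unadjusted p under 0.05 edgeR gave 9 of the 39, where 20.8% of all genes were past it. Lamp2, at 386 and 379 CPM in DeltXp_DeltXm against 1037 and 777 CPM in DeltXp, had a change of log2 -1.25 (SE 0.304, adjusted p = 0.0733). Gaa, at 1.87 and 4.32 CPM in DeltXp_DeltXm against 11.3 and 10.9 CPM in DeltXp, had log2 -1.84 (SE 0.367, adjusted p = 0.059). Atp6v0d1, at 35.7 and 33.4 CPM in DeltXp_DeltXm against 16.5 and 18.8 CPM in DeltXp, had log2 0.97 (SE 0.248, adjusted p = 0.0797). In each of the 3 the groups did not overlap, and the adjusted p missed the threshold. Such separation was common among the 39 genes tested: the 2 groups overlapped in only 18 of them. The share over all genes was not counted. With no filter on low counts Lamp2 and Gaa were called, where 5.18% of all genes were. A replicate block that takes the other of the 2 numbers in the DeltXp titles, chosen after seeing the data, called all 3, where 10.3% of all genes were. Without WT_EV replicate 3, which enters through the shared estimate of the spread, Lamp2 and Gaa were called (adjusted p = 0.0391 and 0.0408). Gaa was also called without DeltXp_DeltXm replicate 2 (adjusted p = 0.0453). On the counts as deposited, the 95% intervals ran from -1.92 to -0.57 for Lamp2, from -2.66 to -1.02 for Gaa and from 0.41 to 1.52 for Atp6v0d1. With the offsets they ran from -1.205 to -0.21 for Lamp2 and from -2.79 to -1.07 for Gaa. That of Atp6v0d1 then ran from -0.07 to 0.98 and included 0. The median over the 39 genes was 0.06, against 0.02 over all genes.

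Lamp2, Gla, Atp6ap1, Atp6ap2 and Ids lie on the X chromosome, on which the Xist deletions lie as well. Of these 5, 4 rose, 0 fell and Atp6ap1 was not called, in DeltXp_DeltXm and in DeltXp. Of the 510 X-linked genes tested, 50% rose in DeltXp_DeltXm and 52.4% in DeltXp, against 30.2% and 31.5% of the genes elsewhere. The median change of the 5 was 2.13 in DeltXp_DeltXm and 2.28 in DeltXp, and that of all X-linked genes 0.97 and 1.10. With the offsets 3 of the 5 (Lamp2, Atp6ap1, Atp6ap2) rose in each comparison, and the share of X-linked genes that rose was 27.1% in DeltXp_DeltXm and 33.5% in DeltXp, against 20.6% and 24.8% elsewhere. Apart from Atp6ap1 (51.2%), the 5 have a GC content of 46.3% or less. Whether the position on the X has a part in their change was not tested.

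The WT_clone table was analysed here only in part, in 11512 genes, among which are 8 of the 41 genes: Lamp2, Ctsa, Ctsz, Gla, Atp6ap1, Atp6ap2, Atp6v1h and Ids. Over the 3302 shared genes tested, WT_clone against WT_EV called 30.6% of all genes and 2 of the 8, Lamp2 higher and Ctsz lower. On the scale of the shared genes, Lamp2 had 1052 and 776 CPM in WT_clone, against 226, 256 and 389 CPM in WT_EV, a change of 1.65 (adjusted p = 0.00389), and with the offsets 1.60 (adjusted p = 0.0024), when 23.5% of all shared genes were called. On the counts as deposited, the WT_clone libraries of Lamp2 lay between the deletion libraries, the lowest of which had 1626 CPM, and WT_EV. Against WT_clone (edgeR quasi-likelihood test), Lamp2 in DeltXp_DeltXm was at 0.85 (adjusted p = 0.0803), not called. With the offsets it was at -0.16 (adjusted p = 0.783). In DeltXp, Lamp2 was at 2.125 (adjusted p = 0.000776) against WT_clone, and with the offsets at 0.70 (adjusted p = 0.101), not called. Ctsz had 701 and 165 CPM in WT_clone, a spread of more than 4-fold, against 1799, 1428 and 1211 CPM in WT_EV, and its change of -1.77 (adjusted p = 0.0279) was not called with the offsets, at -0.88 (adjusted p = 0.222). It was also not called without WT_EV replicate 1, WT_EV replicate 2 or WT_clone replicate 2.

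DeltXp_DeltXm against WT_clone called 25% of all shared genes, and Atp6ap2 and Ids rose and Ctsa and Ctsz fell. DeltXp against WT_clone called 40.2%, and Lamp2, Atp6ap2 and Ids rose and Ctsa and Ctsz fell. Ctsa had the lowest adjusted p of the 8, at 144 and 163 CPM in DeltXp_DeltXm and 192 and 159 CPM in DeltXp, against 1402 and 1135 CPM in WT_clone. Its changes were -3.05 (adjusted p = 0.000126) and -2.85 (adjusted p = 6.04e-05). With the offsets, Ctsa alone of the 8 was called in DeltXp_DeltXm, at -1.37 (adjusted p = 0.0205), where 5.28% of all shared genes were, and none of the 8 in DeltXp, where 13% of all shared genes were. In DeltXp_DeltXm against WT_clone the calls of Atp6ap2, Ids and Ctsz were lost when 1 library was left out. In DeltXp against WT_clone the call of Ids was lost without DeltXp replicate 1 (adjusted p = 0.0846).

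**Figure D5:**
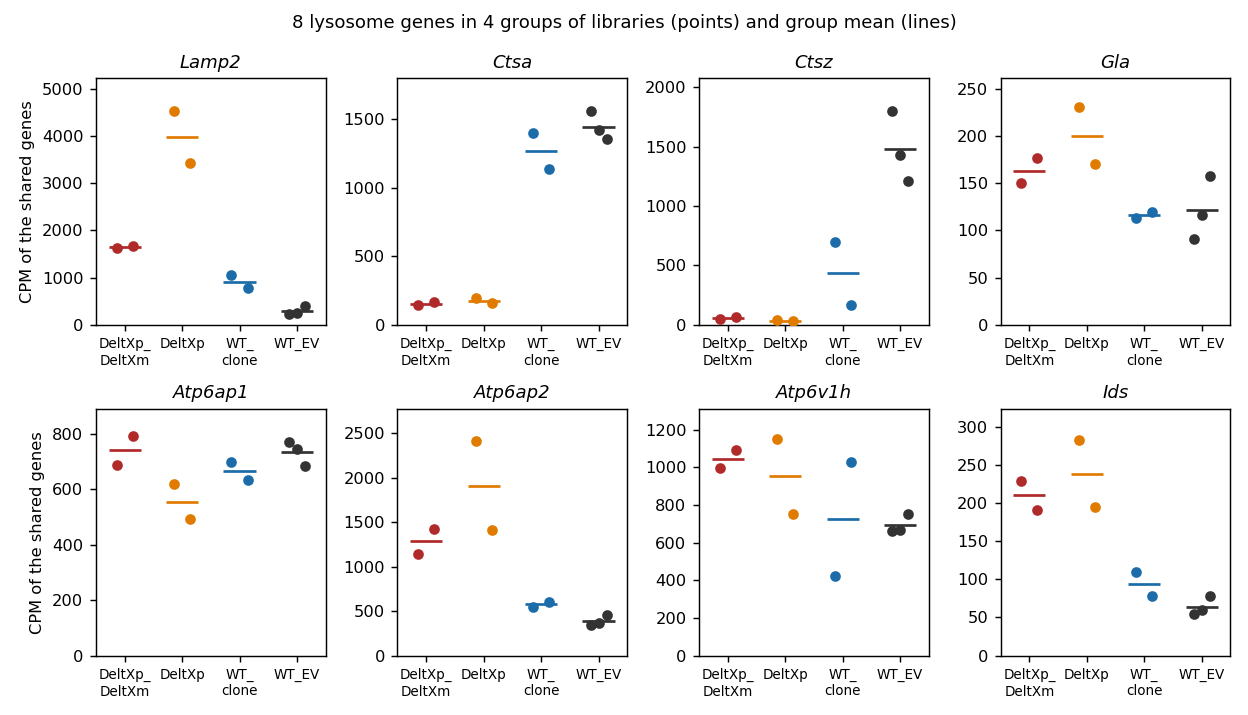
CPM over the shared genes (y axis, from 0) of the 8 lysosome genes held for WT_clone, in each library (points) of DeltXp_DeltXm, DeltXp, WT_clone and WT_EV, with group means (lines). Ctsa is high in both wild-type groups, Lamp2 and Ctsz in WT_clone lie between the deletions and WT_EV, and Ctsz and Atp6v1h differ widely between the 2 WT_clone libraries.

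A list of 99 further lysosome genes, of which 91 were tested, gave shares called close to those of all genes. In DeltXp_DeltXm 26 rose and 39 fell (71.4%, all genes 66.8%), and in DeltXp 26 rose and 42 fell (74.7%, all genes 72.3%). With the offsets 16 rose and 17 fell in DeltXp_DeltXm (36.3%, all genes 40%) and 21 rose and 23 fell in DeltXp (48.4%, all genes 48.7%). Between the deletions 0 of the 91 were called, where 0.444% of all genes were. Against WT_EV 30.9% of all genes rose and 36% fell in DeltXp_DeltXm, and 32.2% rose and 40.1% fell in DeltXp. With the offsets 20.8% rose and 19.3% fell in DeltXp_DeltXm, and 25.1% rose and 23.7% fell in DeltXp. The counts by role that follow are to be read beside these shares. Among the other 14 pump genes tested, 1 rose and 5 fell in DeltXp_DeltXm and 1 rose and 6 fell in DeltXp, and with the offsets 0 rose and 3 fell in DeltXp_DeltXm and 1 rose and 5 fell in DeltXp. Tcirg1, the a3 subunit of V0 known from osteoclasts, had 1.82 and 2.67 CPM in DeltXp_DeltXm and 2.81 and 1.81 CPM in DeltXp, against 99.3, 108 and 58.1 CPM in WT_EV and fell, at log2 -5.29 (adjusted p = 1.04e-05) and -5.26 (adjusted p = 6.16e-06), and with the offsets at -1.98 (adjusted p = 0.00208) and -1.75 (adjusted p = 0.00268). Atp6v0b, a proteolipid subunit of V0, fell, at log2 -3.30 (adjusted p = 9.38e-06) and -3.90 (adjusted p = 4.46e-06), which the offsets reduced to -0.36 and -0.49, not called. Of 19 sorting genes, 6 rose and 8 fell in DeltXp_DeltXm and in DeltXp, and with the offsets 2 rose and 6 fell in DeltXp_DeltXm and 4 rose and 7 fell in DeltXp. Vps18, a core subunit of the HOPS tethering complex, fell, at log2 -4.83 (adjusted p = 1.1e-05) and -5.33 (adjusted p = 5.23e-06), and with the offsets at -1.88 (adjusted p = 0.00529) and -2.24 (adjusted p = 0.00207). Vps35, the retromer subunit that returns sorting receptors from endosomes, rose, at log2 2.46 (adjusted p = 4.48e-05) and 2.78 (adjusted p = 1.55e-05), and with the offsets at 0.96 (adjusted p = 0.00777) and 0.99 (adjusted p = 0.00527). Nagpa, the enzyme that uncovers the mannose 6-phosphate tag, fell, at log2 -5.17 (adjusted p = 1.27e-05) and -5.88 (adjusted p = 5.65e-06), and with the offsets at -1.45 (adjusted p = 0.0254) and -1.97 (adjusted p = 0.0073). Of 20 further membrane proteins, 9 rose and 8 fell in DeltXp_DeltXm and 8 rose and 8 fell in DeltXp, and with the offsets 6 rose and 3 fell in DeltXp_DeltXm and 5 rose and 4 fell in DeltXp. Cd164, a sialomucin of endosomes and lysosomes, rose, at log2 2.34 (adjusted p = 3.59e-05) and 3.01 (adjusted p = 6.9e-06) and Sidt2 fell, at log2 -3.75 (adjusted p = 8.34e-06) and -3.80 (adjusted p = 4.58e-06). With the offsets Cd164 was at 0.88 (adjusted p = 0.0077) and 1.27 (adjusted p = 0.00101) and Sidt2 at -1.20 (adjusted p = 0.00805) and -1.08 (adjusted p = 0.0104). Of 22 further hydrolases, 5 rose and 11 fell in DeltXp_DeltXm and 5 rose and 12 fell in DeltXp, and with the offsets 3 rose and 3 fell in DeltXp_DeltXm and 6 rose and 4 fell in DeltXp.

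Compared per length, as counts scaled by library total and exon length (RPKM), Lamp1 and Asah1 had the highest mean levels of the 41 genes. Lamp1 averaged 402 RPKM in DeltXp_DeltXm, 595 in DeltXp and 397 in WT_EV, and Asah1 averaged 415, 717 and 45.1 RPKM in the same groups. In WT_EV the highest after Lamp1 were Ctsz at 179, Ctsl at 147 and Psap at 89.6 RPKM. In the deletions the next after Lamp1 and Asah1 were Ctsl at 148, Atp6ap2 at 114 and Atp6v1a at 107 RPKM in DeltXp_DeltXm, and Atp6ap2 at 166 and Atp6v1a at 113 RPKM in DeltXp. Apart from Hexa and Gusb, the lowest in the deletions was Tfeb, at 0.0781 RPKM in DeltXp_DeltXm, and Ctsc in DeltXp. In WT_EV, again apart from Hexa and Gusb, Arsb at 0.364 and Gm2a at 0.454 RPKM were the lowest.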

How the data were processed

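Total RNA of 7 libraries (DeltXp_DeltXm 2, DeltXp 2, WT_EV 3) was analysed from a table of read counts per gene that the authors deposited, and 2 WT_clone libraries from a second deposited table of counts. Per the submitters' processing notes, the tools were FastQC, STAR 2.7.9a and featureCounts 2.0.1 and the build GRCm38/mm10. Neither the annotation release nor the strand setting nor poly(A) selection is stated there. The deposited counts were not normalized. Per the labels' protocols Trizol was used for extraction, and a NEBNext Ultra and a TruSeq stranded kit are named for the libraries. The labels do not tie the 3 WT_EV libraries to separate cultures, and the spread that p-values measure may there be technical. The 2 DeltXp titles each carry 2 numbers that disagree, and the "rep" number was taken as the replicate.

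All groups of a table were fitted together with edgeR 4.0.16 (TMM factors, filterByExpr, quasi-likelihood test, Benjamini-Hochberg adjustment over 15331 genes, or 3302 genes shared with WT_clone, threshold 0.05) in R 4.3.3. The biological coefficient of variation was 33.7%, and 39.3% over the shared genes. CPM use the TMM-scaled totals, and RPKM divide them by the exon length in the deposited table. A standard error is the log2 change divided by the square root of F. Offsets were fitted per library with natural splines (df 5) of GC content and length of the longest coding transcript (GENCODE M21). GC content and length offsets, DESeq2 1.42.0, other scaling factors, no filter on low counts, the 2 groups alone, protein-coding genes without histones, each library left out and a replicate block were tried as alternatives. The fits were tested on simulated data. The 41 genes, the list of 99 further genes, the marker lists and the tests were chosen with earlier results of these data known. All 41 genes could be named. Per-library values were given for the largest changes per role, and of the further genes at most the 2 with the lowest p per role, direction and comparison were named. Samples with the same replicate number did not deviate together. Counts bear on overlapping genes without a known strand setting, so reads of a gene and an antisense partner cannot be told apart. Promoter sequences are from RefSeq (GRCm38.p6).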

Additional observations from a re-analysis of the deposited data

How the results depend on the processing

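With offsets for GC content and length the count of all genes called went to 6129 in DeltXp_DeltXm against WT_EV and to 37 in DeltXp_DeltXm against DeltXp, and the count of lysosome genes that fell went to 9 in DeltXp_DeltXm and 7 in DeltXp. Among genes called in either fit, these changed sign with the offsets in DeltXp_DeltXm: Atp6v1h (log2 -0.16), Psap (0.14), Mcoln1 (1.19), Atp6v0d1 (0.27), Galns (0.24), Sgsh (0.0122), Ctsl (-1.50), Atp6v1a (-0.0816) and Neu1 (0.39). In DeltXp they were Atp6v1h (-0.38), Atp6ap1 (1.08), Tpp1 (-0.0196), Psap (0.77), Mcoln1 (0.71), Galns (0.29), Grn (0.0305), Atp6v1a (-0.20) and Neu1 (0.79). Idua, Tpp1 and Ctsh in DeltXp_DeltXm and Cd63 in DeltXp also changed sign, without a call in either fit. The offsets take out GC content and length together, and the part of each was not tested, nor whether the trend is technical. With WT_clone the offsets left 430 genes called in DeltXp (0 lysosome genes higher, 0 lower), 174 in DeltXp_DeltXm (0 higher, 1 lower) and 0 lysosome genes lower in WT_clone against WT_EV.

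Between the deletions the count of all genes called was 1043 with DESeq2 (1 lysosome gene higher, 2 lower), 1436 with no filter on low counts (2 lower), 10 with the 2 groups alone, and 2 to 480 with 1 library left out (0 to 2 lower), the highest without WT_EV replicate 3. Without 1 of the WT_EV libraries, 12 to 13 lysosome genes rose and 16 to 17 fell in DeltXp_DeltXm against WT_EV. In those fits 9028 to 10144 of all genes were called. In DeltXp against WT_EV 14 rose and 17 to 19 fell, where 10007 to 11014 of all genes were called. Against WT_clone the ranges of all genes called were 415 to 949 in DeltXp_DeltXm (0 to 3 lysosome genes higher, 1 to 2 lower) and 692 to 1344 in DeltXp (2 to 4 higher, 2 lower), and WT_clone against WT_EV gave 552 to 1057 (0 to 1 lower). Where a lone library was left in a group it was assumed to vary like the other groups. A left-out library ended the call of 1 gene of 29 in DeltXp_DeltXm (Gla) and 3 of 31 in DeltXp (Arsb, Atp6v1h, Tpp1). RLE factors gave a median over all genes of -0.20 in DeltXp against WT_EV, where TMM factors gave -0.35, and turned no lysosome gene that was called. Some alternatives added calls against WT_EV. Among them were Ctsh lower in DeltXp_DeltXm, as with edgeR without a filter on low counts (adjusted p = 0.0387). In DeltXp, DESeq2 added Ctsc lower (adjusted p = 0.000153) and Atp6v0a1 higher (adjusted p = 0.04).

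The replicate numbers did not pair the samples: deviations of replicate 1 from 2 correlated at -0.26 between DeltXp_DeltXm and DeltXp, -0.10 between DeltXp and WT_EV and 0.10 between DeltXp_DeltXm and WT_EV. The replicate block left 0 lysosome genes called between the deletions and 92 of all genes, and a block with crossed DeltXp numbers (the other number of the titles), chosen after seeing the data, called 1573 (1 lysosome gene higher, 2 lower) and 0 lower in WT_clone against WT_EV. In the other 5 comparisons the block added Ctsh in DeltXp_DeltXm and Ctsc in DeltXp against WT_EV and ended no call. Motif counts using only bases upstream of the start were 10 for TCACGTG, 11 for CACGTG and 1 for the palindromic form. A count of 0, as for Hexa, allows up to 3 in a library, and counting losses were not tested.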

Other observations

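The split of Ctsc within groups was followed after its values were seen. A gene was counted as sharing the pattern where the lowest of WT_EV replicate 1, WT_EV replicate 2 and DeltXp_DeltXm replicate 1 was at least 1 CPM and at least 10 times the highest of the other 4 libraries. Of 55401 genes, 2 met this rule: Ctsc and Gm44751, a long intergenic RNA gene on the same strand of chromosome 7 that starts 589 bases beyond the annotated end of Ctsc. Ctsc had 33.4 CPM in DeltXp_DeltXm replicate 1, against 47.8 and 54.6 CPM in WT_EV replicates 1 and 2, and at most 0.393 CPM in the other 4 libraries. Gm44751 had 1.08 CPM in DeltXp_DeltXm replicate 1, against 1.13 and 1.77 CPM in WT_EV replicates 1 and 2, and at most 0.0511 CPM in the other 4. Both genes were thus present in 1 of 2 DeltXp_DeltXm and 2 of 3 WT_EV libraries and near 0 in both DeltXp libraries.

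Col4a1, an endoderm marker, had 0 CPM in DeltXp replicate 1 and 1983 CPM in DeltXp replicate 2, so that libraries of one group differed there as well.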
